A study of Mus musculus with 4 samples.

Results

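The genes described here encode the proteins of the cytosolic ribosome. They were taken by name: symbols that start with Rpl or Rps and go on with a digit, together with Rplp0, Rplp1, Rplp2 and Rpsa, without -ps pseudogenes and without the Rps6k kinases, if a tissue held at least 50 UMIs (counted molecules) of the gene over its 2 libraries. Of 31017 symbols in the bone marrow files and 32245 in the tumor files, 86 fitted the name and 84 and 85 had enough UMIs. Rpl10l, with 0 UMIs in bone marrow and 1 in tumor, was left out of both tissues. Nearest to the limit were Rpl39l, with 45 UMIs in bone marrow and 267 in tumor, and Rpl3l, with 781 and 460. Measured levels beyond this minimum played no part in the choice.

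The data are 4 droplet single-cell RNA libraries of mouse CD45+ cells, the leukocytes, 1 per group, and each library was pooled from 3 mice. In the KO groups the genotype was S100a8fl/flVav-Cre+/-, in which a Cre recombinase driven by the blood-cell promoter Vav removes S100a8 from blood-forming cells and all their progeny. The WT groups were S100a8fl/flVav-Cre-/-, which carry the same floxed alleles without Cre, so KO and WT differ in Cre itself as well as in S100a8. Each genotype was sampled in bone marrow of tumor-free mice and in tumors grown from LLC, the Lewis lung carcinoma line of mice. The labels used here name no treatment, age or sex. Neutrophils of the WT hold S100a8, the calprotectin subunit, as one of their most abundant transcripts.

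Ribosomal proteins assemble with ribosomal RNA into the small (40S) and large (60S) subunits, and cells make them in near-equal amounts because surplus copies are degraded. Their transcripts are among the most abundant of any growing cell, and many begin with a run of pyrimidines, the terminal oligopyrimidine or TOP tract, through which growth signals by mTOR and LARP1 govern translation and stability. In blood formation the program is strong in stem cells, progenitors and activated lymphocytes and is shut down as neutrophils mature.

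Of the members, 34 encode small subunit proteins by name (Rps) and the others carry Rpl names. They lay on 19 chromosomes, with coding sequences of 78 to 1260 bases and a median of 456. The naming rule also took in Rps19bp1, which encodes a nucleolar binding partner of RPS19 and no subunit, and several second copies of core genes. Copies matter to what a UMI shows, so the coding sequences of 2 pairs are given first, from the GENCODE M21 transcripts of GRCm38, with capitals at the bases that differ between the partners.
Rps27: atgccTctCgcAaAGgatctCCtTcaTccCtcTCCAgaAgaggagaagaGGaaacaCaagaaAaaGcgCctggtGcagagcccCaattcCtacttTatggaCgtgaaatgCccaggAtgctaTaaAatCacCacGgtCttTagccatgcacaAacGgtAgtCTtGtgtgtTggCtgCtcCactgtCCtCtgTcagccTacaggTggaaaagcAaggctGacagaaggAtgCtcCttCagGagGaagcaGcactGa
Rps27l: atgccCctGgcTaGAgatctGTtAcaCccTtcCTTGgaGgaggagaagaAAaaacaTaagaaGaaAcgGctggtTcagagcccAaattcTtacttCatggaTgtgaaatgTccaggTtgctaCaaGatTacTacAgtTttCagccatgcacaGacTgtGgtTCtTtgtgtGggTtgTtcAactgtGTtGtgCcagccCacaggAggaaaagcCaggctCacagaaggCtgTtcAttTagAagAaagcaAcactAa
Rpl39: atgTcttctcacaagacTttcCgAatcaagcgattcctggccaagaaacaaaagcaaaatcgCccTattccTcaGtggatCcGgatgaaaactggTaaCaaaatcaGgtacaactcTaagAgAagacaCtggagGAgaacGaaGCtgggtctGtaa
Rpl39l: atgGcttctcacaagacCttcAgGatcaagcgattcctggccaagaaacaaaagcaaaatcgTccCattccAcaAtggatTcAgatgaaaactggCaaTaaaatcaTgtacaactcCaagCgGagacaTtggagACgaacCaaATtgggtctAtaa
Rps27 (chromosome 3, 90212522 to 90213651, minus strand) and Rps27l (chromosome 9, 66946086 to 66949516, plus strand), whose product is a known p53 target, shared 194 of 255 coding bases (76.1%). Rpl39 (chromosome X) and its copy Rpl39l (chromosome 16, 10170226 to 10174911, plus strand), best known from testis, shared 133 of 156 (85.3%). With differences spread over the whole sequence, reads can be told apart in both pairs. This does not hold for Rps27rt (chromosome 9, 114982366 to 114982739, minus strand), whose 255 coding bases are identical to all 255 of Rps27. Reads from the coding part cannot be told apart between these 2 genes, and how such reads were counted was not examined. The other related pairs shared 54.5% (Rpl7 and Rpl7l1) to 87.9% (Rpl36a and Rpl36al) of the aligned coding bases.

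The TOP tract was searched for because it is the control sequence the family is known for. Windows of 30 bases around RefSeq transcription starts (GRCm38.p6) are given below for 3 members chosen because a tract spans the start and for 2 without one, all described further on, read 5′ to 3′ on the gene's own strand, with the tract in capitals where one was found.
Rpl38 (chr11:114668565-114668594, plus strand): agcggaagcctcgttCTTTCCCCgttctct
Rps27 (chr3:90213634-90213663, minus strand): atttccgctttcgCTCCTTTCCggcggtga
Rplp2 (chr7:141447636-141447665, plus strand): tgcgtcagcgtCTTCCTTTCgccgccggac
Rps28 (chr17:33824548-33824577, minus strand): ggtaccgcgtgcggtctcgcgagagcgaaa
Rpl41 (chr10:128549154-128549183, minus strand): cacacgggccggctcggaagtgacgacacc
A tract was defined as a C followed by at least 4 letters that are each C or T, read on the gene's strand only. Of the genes that fitted the name, 66 had a RefSeq window, Rpl10l among them. Read from the annotated start base itself, a tract was present in 14 of the 66 (21.2%), against 467 of 17492 protein-coding genes (2.67%). A tract that only ran over the start, as in Rpl27a, was not counted here. A tract that began within 10 bases of the start was present in 40 of the 66 (60.6%) and in 34.9% of protein-coding genes. Rps28 and Rpl41 had none in the window shown. An annotated start can lie several bases from the start used in these cells, and a match is a description of letters only.

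The 4 libraries held 8126 to 12027 barcodes and 32906493 to 111214201 UMIs. S100a8, the check of the labels, had 7 UMIs in KO and 2301866 in WT bone marrow, and 85 in KO and 14244 in WT tumor. After filtering, 9887 KO and 7591 WT bone marrow cells and 10507 KO and 10474 WT tumor cells remained, with 33 barcodes shared between the 2 libraries of each tissue. KO cells were deeper, with medians of 2734 against 2264 UMIs in bone marrow and 7977 against 6395 in tumor. Cells were clustered without the ribosomal protein genes and named "-like" from marker genes, and classes with at least 100 cells in each library were compared (11 in bone marrow, 7 in tumor). With 1 library per group there is no replicate and no test. All intervals are exact 95% intervals that cover counting error only, not the spread between mice, sorts or libraries.

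Ribosomal protein transcripts took from 2.58% of all UMIs in mature neutrophil-like cells to 26.3% in stem and progenitor-like cells of WT bone marrow, about 10-fold. Next below the stem and progenitor-like cells stood erythroid-like cells (25.2%), T-like or NK-like cells (23.2%) and granulocyte progenitor-like cells (21.9%). Plasmacytoid dendritic-like cells (18.2%), monocyte-like cells (18%), B-like cells (17.4%) and B precursor-like cells (17.2%) lay close together in the middle. Macrophage-like cells held 12.6%, and immature neutrophil-like cells 4.29%. The macrophage-like class joined 2 unlike clusters, the C1qa-led cluster 13 at 7.61% and cluster 22, led by Ace, H2-Eb1 and H2-Aa, at 17.1%. Along the granulocyte lineage the share thus went from 21.9% in progenitors, which express primary granule genes, to 4.29% in immature and 2.58% in mature cells. In KO bone marrow the same 3 stages held 21.6%, 5.53% and 3.11%. The stem and progenitor-like class also held megakaryocyte or platelet markers, at a summed 2934 CPM (UMIs per 1000000 UMIs of the class) in WT and 1673 in KO, beside 1474 and 1236 CPM of stem cell markers. Macrophage-like cells of bone marrow held secondary granule markers of neutrophils at 21765 (WT) and 28599 CPM (KO), beside 5072 and 4947 CPM of macrophage markers.

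In WT tumors the highest share was that of NK-like cells, 31.2%, followed by T-like cells at 27.0%, conventional dendritic-like cells at 22.9% and migratory dendritic-like cells at 21.1%. Monocyte-like or macrophage-like cells held 16.5%. Cluster 11, which led with Arg1, Ppbp and Serpinb2 and was given no name, held 13.7%, and neutrophil-like cells 5.75%. In KO tumors the 7 classes stood in the same order. In KO bone marrow the 4 middle classes stood in another order: B-like (21.0%), B precursor-like (20.7%), monocyte-like (19.4%) and plasmacytoid dendritic-like cells (19.1%). The other classes stood in the same order.

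**Figure D1:**
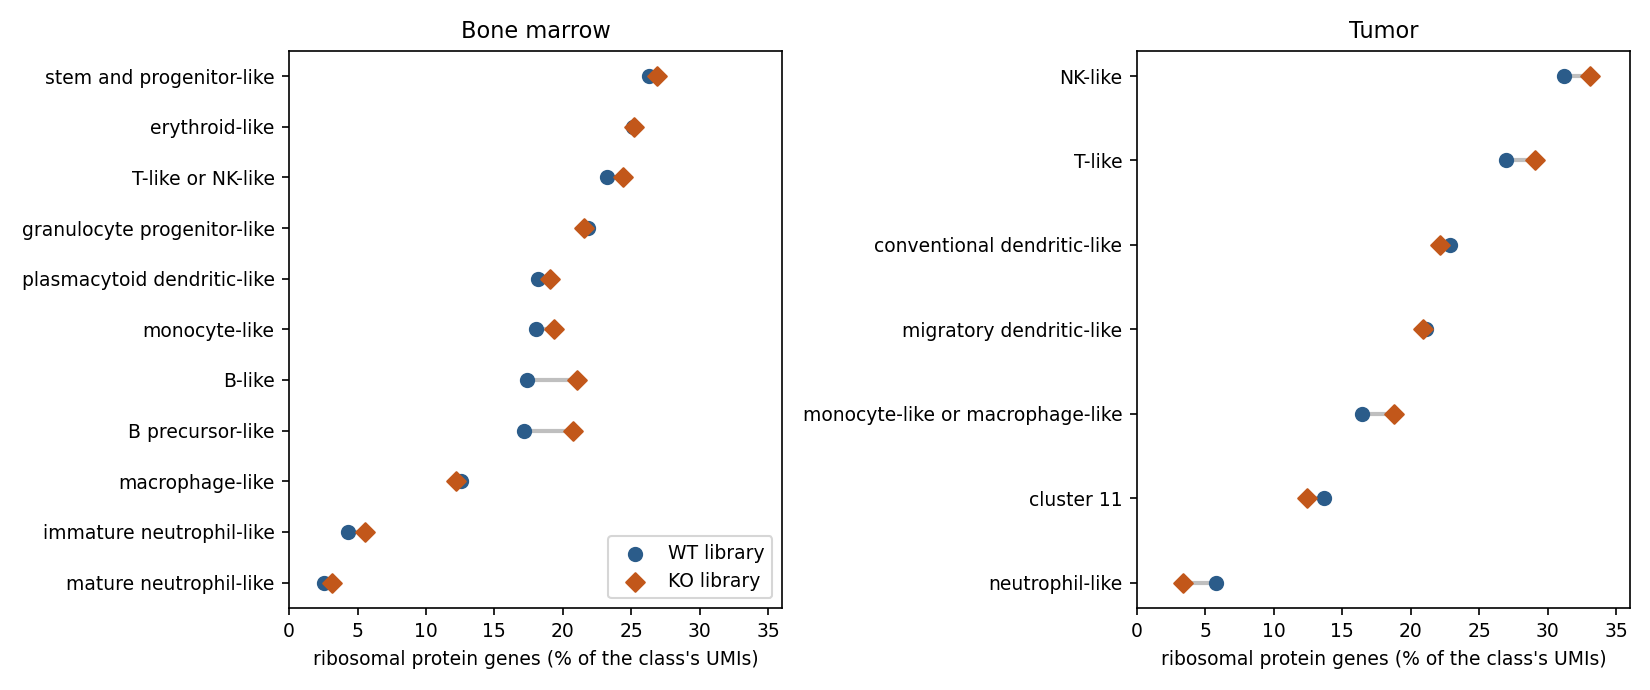
Share of each class's UMIs that came from ribosomal protein genes (horizontal axis, percent) for the classes of bone marrow (left) and tumor (right), with circles for the WT and diamonds for the KO library. Counting intervals are narrower than the symbols; in bone marrow the widest WT to KO gaps are those of B-like and B precursor-like cells, and in tumor those of neutrophil-like, monocyte-like or macrophage-like and T-like cells.

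In bone marrow, the share was higher in the KO library in 9 of 11 classes, although over all cells together it was lower, at 13.6% in KO against 14.3% in WT (ratio 0.950, 0.949 to 0.951). The mix of cells differed as well: mature and immature neutrophil-like cells, which are poor in these transcripts, numbered 4601 and 2144 of 9887 KO cells but 2099 and 1494 of 7591 WT cells. With every cluster given its WT weight in both libraries, the KO share was 15.2% against 14.3%, a ratio of 1.06, and 21 of 25 clusters had the higher share in KO.

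In percentage points, the widest gaps were in the B lineage. Cells of the B precursor-like class, with Vpreb1, Igll1 and Rag1 among the leading genes of its clusters, held 20.7% in KO (20.7 to 20.8) and 17.2% in WT (17.2 to 17.2), a ratio of 1.21 (1.2 to 1.21). B-like cells held 21.0% and 17.4%, likewise a ratio of 1.21 (1.2 to 1.22). In cells the median share was 16.0% against 13.4% in B precursor-like cells and 21.4% against 16.2% in B-like cells, with broad overlap, since the middle 50% of cells spanned 13% to 20.1% in KO and 11.3% to 16.2% in WT B precursor-like cells. The stages within these classes were filled unequally. The Vpreb1-led cluster 14, which had the highest share of its class in both libraries, held 159 of 443 KO but 187 of 1186 WT B precursor-like cells, and within clusters 14, 15 and 21 the ratios were 1.07, 1.13 and 1.09. Within the B-like clusters 0 and 1 they were 1.09 and 1.07.

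In neutrophils the reading depends on S100a8 itself. Mature neutrophil-like cells held 3.11% in KO (3.1 to 3.12) and 2.58% in WT (2.56 to 2.59), and immature ones 5.53% (5.52 to 5.55) and 4.29% (4.28 to 4.31), ratios of 1.2 and 1.29. S100a8 took 14.7% and 18.1% of the WT UMIs of these classes and is missing from the KO total. Once S100a8, S100a9, mitochondrial and hemoglobin UMIs were left out of the total, the ratios were 1.02 (1.02 to 1.03) and 1.07 (1.07 to 1.08). The same step left both B lineage classes at 1.2. KO mature cells lay mostly in clusters 7, 3 and 2 and WT ones mostly in clusters 4 and 7, and with the smaller total the ratio within these 4 clusters and cluster 8 ran from 0.909 to 1.07.

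Other bone marrow classes differed by less. Monocyte-like cells held 19.4% in KO against 18% in WT (ratio 1.08, 1.07 to 1.08), T-like or NK-like cells 24.4% against 23.2% (1.05, 1.05 to 1.06), plasmacytoid dendritic-like cells 19.1% against 18.2% (1.05, 1.04 to 1.06), and stem and progenitor-like cells 26.9% against 26.3% (1.02, 1.02 to 1.02). Erythroid-like cells held 25.2% in both, and their ratio of 1.003 changed side under other settings. Granulocyte progenitor-like cells (21.6% against 21.9%, ratio 0.987) and macrophage-like cells (12.2% against 12.6%, ratio 0.973) were the 2 classes with a lower share in KO. Within the macrophage-like class the ratio was 0.941 in cluster 13 and 1.01 in cluster 22, and as a mean over its cells 0.998.

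Single members moved little apart from one another in bone marrow. Over the 11 classes, 914 pairs of a member and a class had at least 50 UMIs over both libraries (82 to 84 members per class), and 14 of them differed by 1.5-fold or more (1.53%), 12 higher and 2 lower in KO. Among all genes measured the same way, 9.74% of pairs did. With S100a8, S100a9, mitochondrial and hemoglobin UMIs left out of the total there were 7 such pairs, 5 of them higher, and under median-of-ratios scaling 8, 6 of them higher. The median log2 ratio of the members was 0.30 in B precursor-like cells against −0.04 for all genes, and 80 of 83 members lay above the all-gene median. It was 0.27 against −0.07 in B-like cells and 0.37 against 0.22 in immature neutrophil-like cells. In mature neutrophil-like cells it was 0.25 against 0.23, and 45 of 84 members lay above the all-gene median. In monocyte-like cells it was 0.12 against 0.02, in stem and progenitor-like cells 0.02 against −0.03, and in granulocyte progenitor-like cells 0.01 against 0.04.

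**Figure D2:**
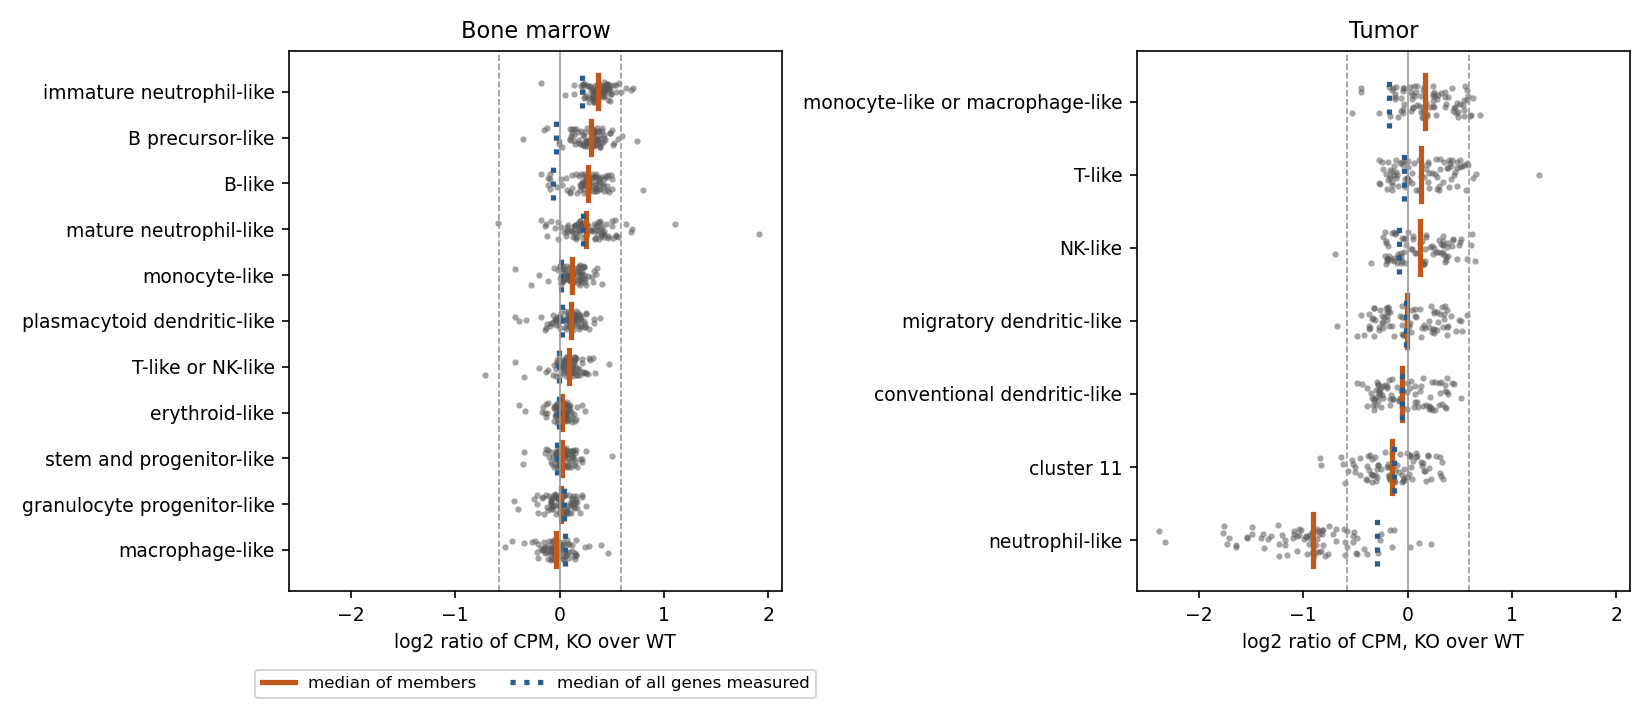
Log2 ratio of CPM, KO over WT (horizontal axis), with 1 grey point per member in each class (rows; vertical scatter has no meaning), the members' median as a solid bar and the median of all measured genes as a dotted bar; dashed lines mark 1.5-fold. In bone marrow nearly all members lie inside the dashed lines, and in tumor neutrophil-like cells 65 of 84 lie beyond the lower one.

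As CPM of all UMIs, a total from which S100a8 is missing in KO, the members past 1.5-fold in bone marrow lay chiefly in neutrophils. With the smaller total given above, the ratio of the share went from 1.2 to 1.02 in mature and from 1.29 to 1.07 in immature cells. Fewer pairs of bone marrow passed with it, and the ratios of single members below are not on that total. In mature neutrophil-like cells 6 of 84 members passed 1.5-fold, where 19.6% of all genes did. Rps27a, which is made as a fusion with ubiquitin, stood at 2584 CPM in KO and 1601 in WT, 1.61-fold higher (1.57 to 1.66). Rplp0, the base of the ribosomal stalk, stood at 201 against 125 CPM (1.60-fold, 1.45 to 1.77) and Rps18 at 85.4 against 55 CPM (1.55-fold, 1.33 to 1.81). Rpl7l1, the second copy of Rpl7, stood at 36.7 against 17.1 CPM (2.15-fold, 1.65 to 2.84). Rps19bp1 rested on 89 KO and 9 WT UMIs (3.77-fold, 1.90 to 8.51). Rps27rt was the one member lower, at 41 against 61.8 CPM (ratio 0.663, 0.564 to 0.781). Handling and dissociation genes were also higher in these cells, 7 of 12 by 1.5-fold or more, against 15.1% of all genes (median log2 ratio 0.70), and their part in the result was not tested.

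In immature neutrophil-like cells 4 of 84 members passed 1.5-fold, where 9.04% of all genes did, and all 4 were higher in KO. These CPM too are of all UMIs, of which S100a8 took 18.1% in WT and is missing in KO. Rps14, the small subunit protein lost in 5q minus syndrome, stood at 735 against 457 CPM (1.61-fold, 1.54 to 1.67), Rps12 at 1147 against 740 CPM (1.55-fold, 1.5 to 1.6) and Rps25 at 709 against 472 CPM (1.5-fold, 1.44 to 1.56). Rpl3l rested on 89 and 33 UMIs (1.63-fold, 1.08 to 2.51). In these cells 10 of 11 handling and dissociation genes, such as Egr1 and Fos, were also 1.5-fold or more higher in KO, against 7.23% of all genes (median log2 ratio 0.95), and their part in the result was not tested.

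Outside neutrophils 4 pairs passed 1.5-fold in bone marrow. In B precursor-like cells 2 of 83 members did, against 13.2% of all genes: Rps2, of the small subunit's mRNA entry side, at 2397 against 1580 CPM (1.52-fold, 1.46 to 1.57), and Rps19bp1 at 57.7 against 34.4 CPM (1.68-fold, 1.30 to 2.15). In B-like cells only Rps19bp1 did (1 of 83, against 11% of all genes), on 27 and 26 UMIs. Rps27rt was the only one in the T-like or NK-like class, where it was lower (1 of 83, against 8.95%), at 206 against 340 CPM (ratio 0.608, 0.512 to 0.721). No member passed 1.5-fold in monocyte-like, stem and progenitor-like, granulocyte progenitor-like, macrophage-like, plasmacytoid dendritic-like or erythroid-like cells, where 6.8%, 7.3%, 6.01%, 12.2%, 10.4% and 5.05% of all genes did.

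In tumor, the all-cell share was 18.3% in KO against 23.4% in WT, a ratio of 0.779 (0.779 to 0.78). Here too the cell mix differed: 3086 of 10507 KO cells were neutrophil-like, against 214 of 10474 WT cells, while the T-like cells numbered 1551 and 3994 and the NK-like cells 224 and 1665. With clusters given WT weights in both libraries the ratio was 1.06, and 15 of 25 clusters had the higher share in KO. By class, 3 of 7 were higher in KO: monocyte-like or macrophage-like cells (18.8% against 16.5%, ratio 1.14, 1.14 to 1.14), T-like cells (29.1% against 27.0%, 1.08, 1.08 to 1.08) and NK-like cells (33.1% against 31.2%, 1.06, 1.06 to 1.06). Migratory dendritic-like cells (20.9% against 21.1%, ratio 0.989) and conventional dendritic-like cells (22.1% against 22.9%, ratio 0.967) were slightly lower, and cluster 11 was lower at 12.4% against 13.7% (ratio 0.906, 0.901 to 0.912), with 1492 KO but 108 WT cells. Among conventional dendritic-like clusters the ratio was 0.988 in cluster 3, 0.973 in cluster 23 and 0.911 in cluster 5, which also had the T cell gene Foxp3 among its leading genes.

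The tumor monocyte-like or macrophage-like difference was uneven between clusters. It was widest in cluster 0, led by Mgst1, Chil3 and Hp, at 22.4% in KO against 15.9% in WT (ratio 1.40), and stood at 1.2 in cluster 1 and 1.17 in cluster 10. The C1q and Ccl8 macrophages of cluster 2 went the other way, at 16.1% against 17.4% (ratio 0.925). KO cells of the class lay mostly in cluster 1 (1412 of 3514) and WT cells in cluster 10 (1091 of 2278). Among T-like clusters the ratio ran from 0.969 in the Il17a-led cluster 17 to 1.12 in the Cd4-led cluster 8, with 1.07 in the Foxp3-led cluster 12 and 1.04 in the Cd8a-led cluster 6.

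Tumor neutrophil-like cells had the largest difference, with a share of 3.33% in KO (3.32 to 3.34) and 5.75% in WT (5.69 to 5.81), a ratio of 0.579 (0.572 to 0.586). It was 0.483 in cluster 14 and 0.656 in cluster 15. Few WT cells carried it: 214 against 3086, at a median depth of 2429 against 3804 UMIs. Per cell the medians lay closer, 3.17% in KO and 3.63% in WT, and the upper tail differed more, with the 90th percentile at 4.88% and 8.32%. WT cells of the class held more transcripts of other lineages. The 8 T cell markers summed to 213 CPM in WT and 19.4 in KO, none of them at 0 in either. The 6 migratory dendritic markers summed to 300 and 33.1 CPM and the 7 monocyte markers to 545 and 174 CPM. The 7 B markers summed to 794 and 257 CPM, but 6 of these 7 were at 0 in WT, so that sum does not speak for the B list as a set. Mature neutrophil markers were close, at 31994 and 30254 CPM. Among the 1328 KO and 116 WT cells without any UMI of the T, NK, conventional dendritic and macrophage markers, the shares were 3.25% and 3.90%, a ratio of 0.833 (0.816 to 0.85). Thinned to 4190 UMIs per cell, the ratio was 0.179, with 10 WT cells left. Over the whole class with doublets kept, the ratio was 0.714. Doublets had been removed by an automatic threshold in KO and at the expected rate in WT tumor.

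By member, 65 of 84 measured in tumor neutrophil-like cells were lower in KO by 1.5-fold or more, where 35.3% of all genes were lower by that much and 48.5% differed in either direction. Their median log2 ratio was −0.91 against −0.29 for all genes. These values are from all cells of the class. Without cells that held T, NK, conventional dendritic or macrophage markers the ratio of the share was 0.833, not 0.579, and members were not recounted there. Rps27l had the lowest ratio, at 28.3 CPM in KO and 147 in WT, 5.20-fold lower (4.04 to 6.63), followed by Rpl12, a stalk-base protein, at 117 against 587 CPM (5.02-fold lower, 4.44 to 5.66). Rps19, the gene most often mutated in Diamond-Blackfan anemia, was 3.41-fold lower, and Rpsa 3.31-fold lower. At the other end stood Rpl22l1, at 104 against 89.1 CPM (ratio 1.17, 0.879 to 1.59), and Rpl41, above its WT level of 951 CPM by a ratio of 1.08 (0.987 to 1.18); both intervals include 1. Rps27a stood at 1381 against 1530 CPM (ratio 0.902).

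Leaving neutrophil-like cells aside, 17 of 500 pairs of a member and a tumor class passed 1.5-fold, 10 higher and 7 lower in KO. With them it was 82 of 584 (14%), 10 higher and 72 lower, where 21.6% of all gene and class pairs passed. Under median-of-ratios scaling the count was 84, with 34 higher and 50 lower. In monocyte-like or macrophage-like cells 4 of 84 members passed, against 19.1% of all genes, and all were higher. They were Rps28, a small protein at the mRNA exit of the 40S subunit (2049 against 1264 CPM, 1.62-fold, 1.60 to 1.64), Rps27rt (57.9 against 37.4 CPM, 1.55-fold), Rplp2 of the acidic stalk (2615 against 1720 CPM, 1.52-fold) and Rps27 (2838 against 1878 CPM, 1.51-fold).

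In tumor T-like cells 3 of 84 members passed 1.5-fold, against 10.6% of all genes. Rps28 stood at 2431 against 1540 CPM (1.58-fold, 1.55 to 1.60), Rps27rt at 130 against 83.9 CPM (1.55-fold, 1.45 to 1.66), and Rpl39l rested on 59 and 51 UMIs (2.40-fold, 1.62 to 3.56). In NK-like cells 4 of 83 passed, against 14.8% of all genes. Rps28 was higher (2883 against 1845 CPM, 1.56-fold), as were Rpl39, which lines the peptide exit tunnel (5211 against 3405 CPM, 1.53-fold), and Rpl41, the smallest ribosomal protein (4784 against 3141 CPM, 1.52-fold), and Rps19bp1 was lower (19.5 against 31.5 CPM, ratio 0.619). No member passed in conventional dendritic-like cells, against 15.8% of all genes.

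In cluster 11, 5 of 83 members passed 1.5-fold, all lower in KO, against 34% of all genes in either direction. Rps2 stood at 1179 against 2117 CPM (1.80-fold lower) and Rpl3, which shapes the peptidyl transferase center, at 572 against 1013 CPM (1.77-fold lower), and Rpl12, Rpl11 and Rpl14 were 1.55-fold, 1.51-fold and 1.54-fold lower. In migratory dendritic-like cells Rpl3 alone passed (1 of 83, against 19.3%), at 988 against 1583 CPM (1.60-fold lower, 1.51 to 1.70).

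The tumor members, those past 1.5-fold included, fell into a pattern by length. Each member's share of the summed ribosomal protein UMIs of its class, its share of the pool, was compared between the libraries, which removes any difference in the total. In T-like cells the log2 ratio of this share went down with the log2 coding length (Pearson r −0.795, Spearman rho −0.858, 84 members). In the other tumor classes Pearson's r was −0.695 in monocyte-like or macrophage-like, −0.746 in NK-like, −0.814 in conventional dendritic-like, −0.822 in migratory dendritic-like cells, −0.707 in cluster 11 and −0.423 in neutrophil-like cells. In bone marrow Pearson's r ran from 0.101 in B-like to 0.361 in monocyte-like cells, and Spearman's rho from −0.0377 in B-like to 0.308 in granulocyte progenitor-like cells. Members are not replicates, and all classes of a tissue share the same 2 libraries, so these are descriptions with no test.

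**Figure D3:**
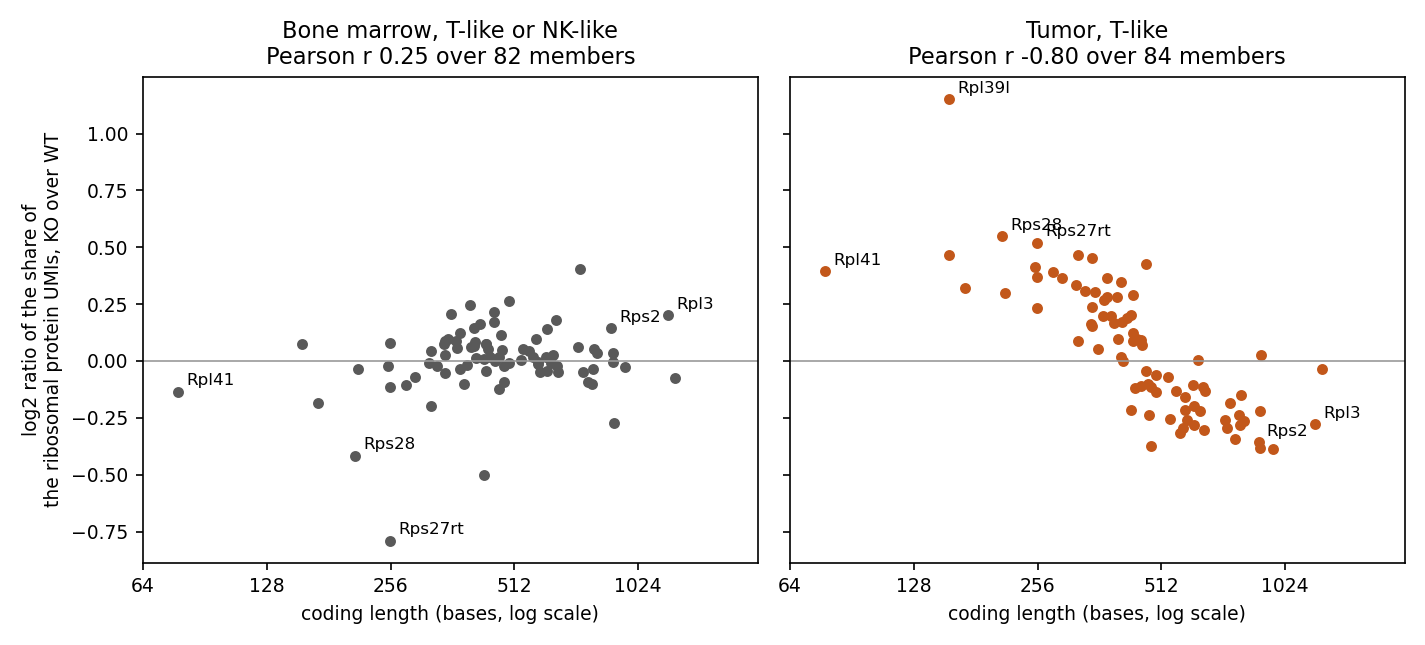
Log2 ratio of each member's share of the ribosomal protein UMIs, KO over WT (vertical axis), against coding length in bases (horizontal log axis), with 1 point per member, for bone marrow T-like or NK-like cells (left) and tumor T-like cells (right). In tumor short members such as Rpl41 and Rps28 lie above 0 and long ones such as Rpl3 and Rps2 below it, and in bone marrow Rps27rt lies lowest.

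The lengths give a plain split. In tumor T-like cells, the members of at most the median coding length of 456 bases together held 14.9% of UMIs in KO and 12.0% in WT (ratio 1.24, 1.24 to 1.24), and the longer ones 14.2% and 15% (0.948, 0.946 to 0.95). The 2 ratios were 1.29 and 1.02 in monocyte-like or macrophage-like cells, 1.21 and 0.940 in NK-like cells, 1.12 and 0.850 in conventional dendritic-like cells, 1.15 and 0.848 in migratory dendritic-like cells, 1.03 and 0.802 in cluster 11, and 0.632 and 0.529 in neutrophil-like cells. The shorter members stood above the longer ones in all 7 tumor classes, and in 5 of them, all but monocyte-like or macrophage-like and neutrophil-like cells, the 2 sets lay on opposite sides of 1. In bone marrow T-like or NK-like cells the ratios were 1.05 and 1.06. Genes outside the family showed a smaller difference over the same lengths. In tumor T-like cells the median log2 CPM ratio of the 222 other genes under 300 coding bases was −0.01 and that of the 1454 from 600 up to 900 bases −0.14, whereas the 12 members under 300 bases had a median of 0.50 and the 20 members from 600 up to 900 bases −0.12. In NK-like cells the other genes had medians of 0.12 and −0.13 and the members 0.37 and −0.15. The shorter of these other genes had the higher median in 6 of 7 tumor classes, and in neutrophil-like cells the lower one (−0.64 against −0.46), where the members had −0.48 and −1.19. Over other genes of all lengths, many of them longer than any member, Spearman's rho with length ran from 0.0263 in NK-like to 0.225 in T-like cells.

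Member by member, the direction within the pool often held across classes. In tumor 18 members had a higher and 29 a lower share of the pool in KO in every class where they had at least 100 UMIs, and in bone marrow 9 and 9 did. Of the 18, Rpl39l had that many UMIs in 1 class only, and of the 29, Rpl3l in 2 and Rps19bp1 in 6. These classes share their libraries and are not independent, and the same count was not made over all genes. Among the highest in tumor were Rps28 (median log2 ratio 0.52), Rpl41 (0.47), Rplp2 (0.43), Rps29 (0.41), Rps27 (0.40) and Rpl39 (0.40). Among the lowest were Rps2 (−0.44), Rpl3 (−0.39), Rpsa (−0.38) and Rpl8 (−0.34). In bone marrow the 9 higher ones included Rps14 (0.22), Rps13 (0.17), Rps25 (0.16) and Rpl10 (0.11), a late-joining large subunit protein, and the 9 lower ones Rps27rt (−0.50), Rps28 (−0.38), Rpl5 (−0.17), a partner of 5S RNA, and Rpl38 (−0.13), whose start carries the tract shown above.

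Rps28 (chromosome 17, 33819027 to 33824562, minus strand, 210 coding bases) had the clearest contrast between the tissues among members with many UMIs. In bone marrow its share of the pool, in UMIs per 1000 ribosomal protein UMIs, was 15.4 in KO and 19.9 in WT stem and progenitor-like cells, 15.6 and 20.8 in B precursor-like cells, 16.7 and 21.7 in monocyte-like cells, and 8.38 and 9.7 in mature neutrophil-like cells. It was lower in KO in all 11 classes, with ratios of 0.747 to 0.864. In tumor it was 10.9 in KO and 7.68 in WT monocyte-like or macrophage-like cells, 8.36 and 5.71 in T-like cells, 8.72 and 5.92 in NK-like cells, and 8.88 and 7.17 in neutrophil-like cells, with ratios of 1.24 to 1.48 in the 7 classes. The ranges of the ratios do not overlap between the tissues, which lying on opposite sides of 1 already implies. As CPM of all UMIs, which also carries the change in the total, Rps28 was lower in KO in 9 of 11 bone marrow classes (ratios of 0.731 to 0.939) and at 1.04 in both neutrophil-like classes, and higher in 6 of 7 tumor classes (1.27 to 1.62) and at 0.716 in neutrophil-like cells.

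Another 6 members likewise lay on one side of 1 in all 11 bone marrow classes and on the other in all 7 tumor classes. They are listed because they met this rule, and the same count was not made over all genes. Rpl41 (chromosome 10, 78 coding bases) had pool ratios of 0.775 to 0.985 in bone marrow and 1.28 to 1.86 in tumor. In the pool of WT monocyte-like cells of bone marrow it stood at 43.8 per 1000 and in KO at 37.8. In tumor monocyte-like or macrophage-like cells it stood at 12.2 in WT and 15.6 in KO. Rpl37 ran from 0.870 to 0.996 and from 1.22 to 1.46, Rpl37a from 0.842 to 0.990 and from 1.2 to 1.32, and Rpl35a from 0.910 to 0.991 and from 1.22 to 1.29. Rps27rt, the copy identical to Rps27, ran from 0.551 to 0.767 and from 1.23 to 1.76. Rps13 went the other way, from 1.05 to 1.15 in bone marrow and from 0.895 to 0.981 in tumor. Tissue, mice, library and Cell Ranger version change together between the bone marrow and the tumor pair and cannot be told apart.

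**Figure D4:**
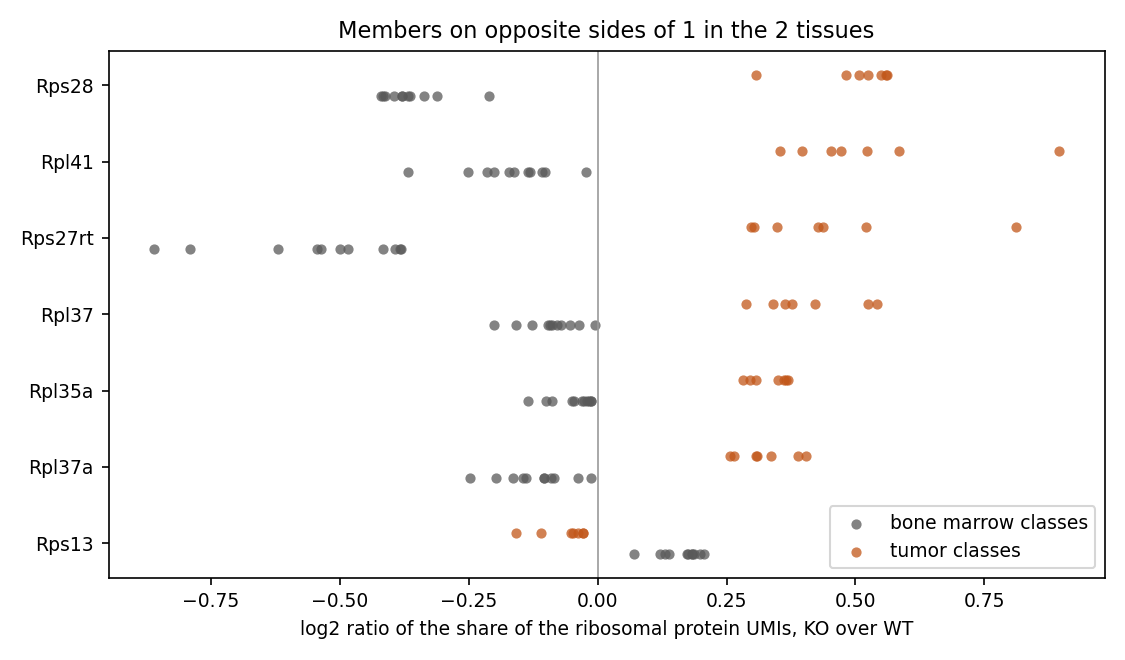
Log2 ratio of the share of the ribosomal protein UMIs, KO over WT (horizontal axis), for the 7 members that lie on opposite sides of 0 in the tissues, with 1 point per class (grey: 11 bone marrow classes, orange: 7 tumor classes). Rps28, Rpl41, Rps27rt, Rpl37, Rpl35a and Rpl37a lie below 0 in bone marrow and above it in tumor, and Rps13 the other way round.

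The makeup of the pool differed between cell classes. Over 81 members with at least 50 WT UMIs in each bone marrow class, the highest class held a median of 1.94 times the share of the pool of the lowest, and 36 members differed by over 2-fold. Over 79 members in tumor the median was 1.39 and 11 members differed by over 2-fold. Rps3 varied least in bone marrow (1.21-fold) and Rps23 in tumor (1.12-fold). Mature neutrophil-like cells were the highest or lowest class for each of the 5 members that varied most in bone marrow. Over all cells, Rpl41 (41.8 per 1000 in KO, 46.7 in WT) and Rps29 (31.5 and 33.1) had the largest shares of the pool in both bone marrow libraries, and Rpl13 (24.5 and 28.3) and Rps24 (21.7 and 23.2) in both tumor libraries. The least was that of Rpl3l in bone marrow (0.0802 and 0.0457) and of Rpl39l in tumor (0.00717 and 0.00504).

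Rps9 (chromosome 7, 3703993 to 3706897, plus strand), a small subunit protein at the mRNA entry channel, took 71.9 of every 1000 ribosomal protein UMIs in WT mature neutrophil-like cells and 71.4 in KO. It took 33.0 and 35.0 in immature neutrophil-like cells and 10.9 and 12.9 in granulocyte progenitor-like cells, a 6.58-fold range in WT and 5.55-fold in KO. In tumor its share was again highest in neutrophil-like cells, at 46.2 in WT and 60.8 in KO, and lowest in NK-like cells, at 14.2 and 12.8. Rps27a followed a like course in bone marrow, with 62.1 (WT) and 83.2 (KO) per 1000 in mature neutrophil-like cells and 13.6 in B-like cells of both. Rps2 ran the other way, from 18.3 (WT) and 18.6 (KO) in erythroid-like cells to 3.42 and 3.70 in mature neutrophil-like cells, as did Rpl12, from 6.53 (WT) and 7.83 (KO) in T-like or NK-like cells to 1.30 and 1.05 in mature neutrophil-like cells. As CPM of all UMIs in WT, Rps9 stood at 2391 in granulocyte progenitor-like, 1414 in immature and 1854 in mature neutrophil-like cells. Rpl3 stood at 1086, 152 and 45 CPM in the same stages.

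Rps27l had the widest range of any member in tumor. It took 7.69 of every 1000 ribosomal protein UMIs in WT migratory dendritic-like cells and 10.0 in KO, against 0.587 and 0.677 in NK-like cells, 13.1-fold and 14.8-fold apart. As CPM it stood at 1622 in WT and 2086 in KO migratory dendritic-like cells, where its partner Rps27 stood at 2863 and 3742. In T-like cells Rps27l stood at 168 and 214 CPM and Rps27 at 3810 and 5305. The next highest WT share of Rps27l was that of neutrophil-like cells, at 2.56, but 0.850 in KO. Tumor Rps27 took most of the pool in neutrophil-like cells, 31.5 (WT) and 44.8 (KO) per 1000, and least in WT conventional dendritic-like cells (10.4).

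**Figure D5:**
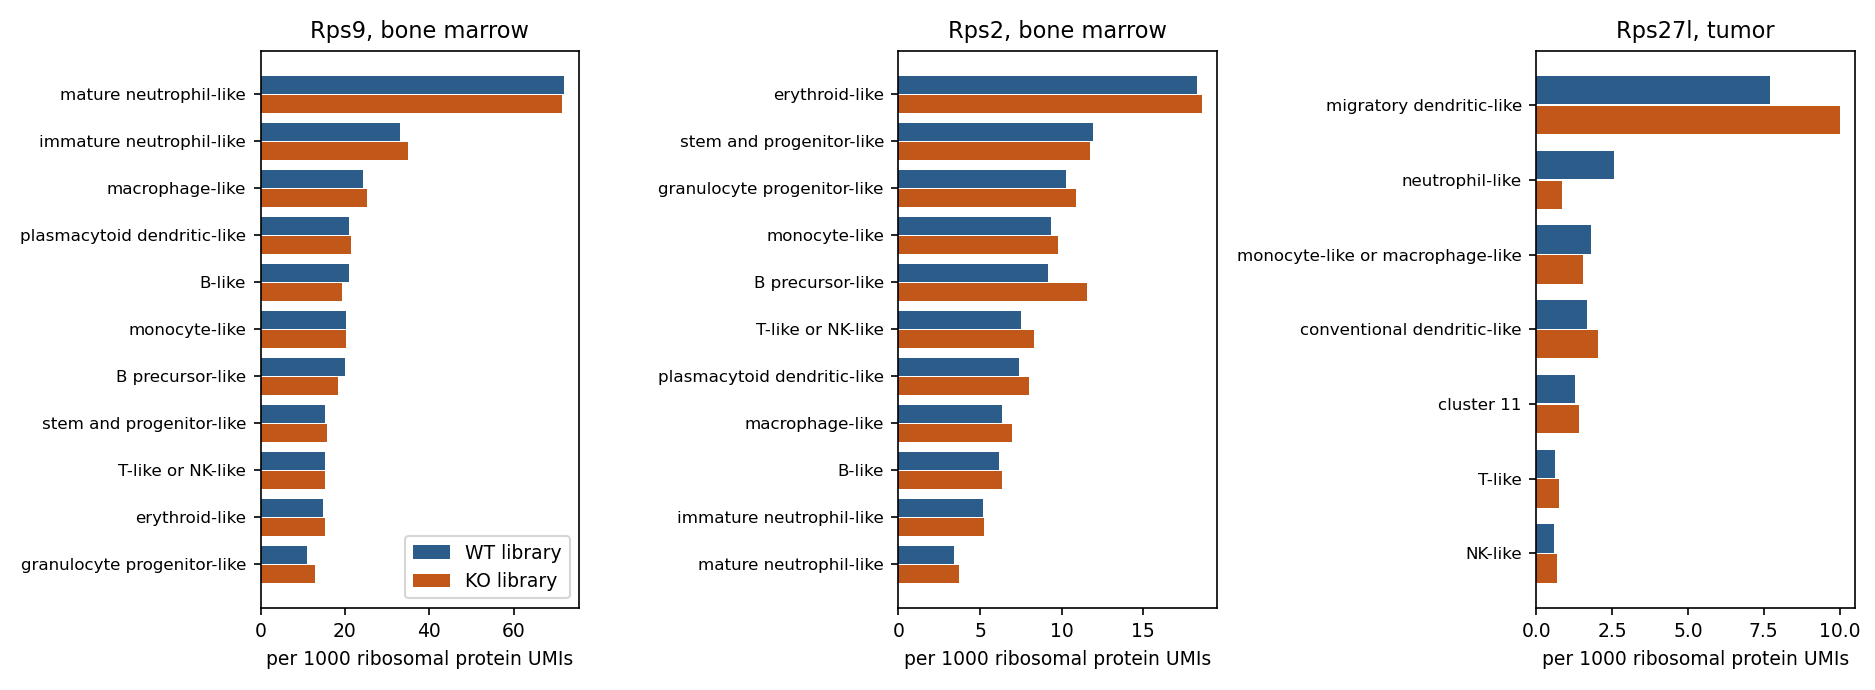
UMIs per 1000 ribosomal protein UMIs (horizontal bars from 0) of Rps9 and Rps2 in the 11 bone marrow classes and of Rps27l in the 7 tumor classes, for the WT (blue) and KO (orange) library. Rps9 is highest and Rps2 lowest in mature neutrophil-like cells, and Rps27l is highest in migratory dendritic-like cells, in both libraries.

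Among the second copies, Rpl3l, which is otherwise known as the heart and skeletal muscle form of Rpl3, had most of its bone marrow UMIs in neutrophils. In bone marrow it stood at 34.8 CPM (353 UMIs) in KO and 29.2 CPM (113 UMIs) in WT mature neutrophil-like cells and at 7.64 and 4.70 CPM in immature ones, at 9.86 (8 UMIs) and 24.4 CPM (12 UMIs) in macrophage-like cells, and it had 0 UMIs in T-like or NK-like cells of both libraries. Rpl3 itself was at its lowest in mature neutrophil-like cells, at 40.7 and 45 CPM. UMIs were not divided by transcript length here, since they count 1 end of each molecule. Their coding sequences share 73.3% of aligned bases. In tumor neutrophil-like cells Rpl3l stood at 8.08 (107 UMIs) and 14.5 CPM (8 UMIs). Rpl36al took 5.40 per 1000 of the tumor pool in WT monocyte-like or macrophage-like cells and 2.24 in neutrophil-like cells. Rpl22l1, the partner of Rpl22, took 2.82 per 1000 in WT granulocyte progenitor-like and 0.772 in mature neutrophil-like cells of bone marrow. Rps19bp1 was the one member past 1.5-fold in 3 bone marrow classes, and it was also among the 3 with the lowest share of the pool in both tissues.

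Rps27 lies 455 kb from S100a8 on chromosome 3, which holds 4 members (with Rpl34, Rps3a1 and Rpl22l1). Its KO over WT ratio of CPM in bone marrow ran from 0.929 in macrophage-like to 1.34 in B-like cells, and in tumor from 0.823 in neutrophil-like to 1.51 in monocyte-like or macrophage-like cells.

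The balance of small against large subunit transcripts was steady. Rps genes made up 45.9% of the pool over all cells of WT bone marrow and 46.9% in KO, and 44.5% and 44.8% in tumor. By class the WT value ran from 44.6% in erythroid-like to 48% in mature neutrophil-like cells of bone marrow, and the KO value from 45.1% to 50.2% in the same classes. It was higher in KO in all 11 bone marrow classes, from 46.2% in both libraries in T-like or NK-like cells to 50.2% against 48% in mature neutrophil-like cells, and in 6 of 7 tumor classes, NK-like cells being the exception at 44.1% against 44.2%.

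Genes outside the naming rule that serve the ribosome are given for comparison. In tumor neutrophil-like cells, where the members had a median log2 ratio of −0.91, Rack1, which docks on the small subunit, stood at 148 CPM in KO and 340 in WT (2.30-fold lower, 1.97 to 2.67). Fau, a small subunit protein made as a fusion with a ubiquitin-like protein, stood at 4848 against 5234 CPM. Over the 11 bone marrow classes of the WT library, the share of 18 translation factors and other TOP mRNAs followed the members' share with Pearson r 0.955 (0.965 over the 7 tumor classes). These points share 1 library, and the median UMIs per cell of the class went with the members' share at r 0.553 and 0.402.

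Ribosome biogenesis factors did not always go with the members. In B precursor-like cells 11 of 31 were 1.5-fold or more higher in KO, where 5.91% of all genes were, and 0 lower, with a median log2 ratio of 0.55 against −0.04 for all genes. Mybbp1a, a nucleolar protein, stood at 207 against 98.4 CPM (2.11-fold, 1.83 to 2.42), Nolc1 at 169 against 91.7 CPM (1.85-fold, 1.59 to 2.14), and Npm1, of the TOP list, at 2285 against 1283 CPM (1.78-fold, 1.71 to 1.85). Myc, which drives the program, stood at 54.6 against 24.2 CPM in these cells (2.26-fold, 1.71 to 2.99). Cluster 14 held 159 of 443 KO but 187 of 1186 WT cells of this class, and these genes were not compared within clusters. In bone marrow monocyte-like cells 7 of 31 biogenesis factors were higher, where 3.75% of all genes were, and 0 lower (median 0.46 against 0.02), with Gnl3 at 64.5 against 36.5 CPM (1.77-fold, 1.44 to 2.18). In B-like cells, where the members' share was as much higher as in B precursor-like cells, 0 of 25 were higher and 2 lower, where 7.25% of all genes were lower (median −0.16 against −0.07).

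In tumor monocyte-like or macrophage-like cells 16 of 31 biogenesis factors were 1.5-fold or more lower in KO, where 14.2% of all genes were, and 0 higher (median −0.59 against −0.18 for all genes), while the members' share was higher. Dkc1, which modifies ribosomal RNA, stood at 6.90 against 14.2 CPM (2.06-fold lower, 1.74 to 2.44), Rrp9 at 5.76 against 12.6 CPM (2.19-fold lower) and Myc at 13.4 against 21.6 CPM (1.62-fold lower, 1.42 to 1.85). Ddit4, an mTOR inhibitor, stood at 55 against 21.6 CPM (2.55-fold higher, 2.30 to 2.83). Cluster 1 held 1412 of 3514 KO but 156 of 2278 WT cells of this class, and these genes were not compared within clusters. Mitochondrial ribosomal proteins had 0 of 78 genes higher and 7 lower in monocyte-like or macrophage-like cells (median −0.39), a smaller share than the 14.2% of all genes. In T-like cells they had 0 in either direction and a median of −0.30 against −0.04, and in neutrophil-like cells 2 of 44 higher and 29 lower (median −1.10), where 35.3% of all genes were lower. Handling and dissociation genes were lower in KO in cluster 11 (7 of 13, against 21.4% of all genes, median −0.95) and higher in tumor neutrophil-like cells (7 of 13, against 13.2%, median 0.66), with Hspa1a there at 2543 against 545 CPM (4.66-fold, 4.16 to 5.24). Their part in the members' differences in these classes was not tested. Of the p53 targets 3 of 8 were lower in monocyte-like or macrophage-like cells, against 14.2% of all genes, and none higher (median −0.40), and in bone marrow B precursor-like cells 0 of 5 passed in either direction.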

How the data were processed

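The values are UMI counts, deposited unnormalized as 1 sparse matrix a library. Per the file headers Cell Ranger 3.1.0 made the bone marrow and 6.0.2 the tumor matrices, whereas the notes of the submitters on processing list Cell Ranger 6.1.2, Seurat 4.3.0, R 4.2.1, mm10 and GRCm38. No barcode held fewer than 500 UMIs, and each tissue was analysed alone. A barcode stayed in with 200 genes or more and no more than 10% of UMIs from mitochondria. Doublets were taken out with scrublet in scanpy 1.11.5. Its automatic threshold took 4.60% (WT bone marrow) and 7.71% (KO tumor). In KO bone marrow and WT tumor it marked 0% and 0.00831%, so the highest scores were removed at the expected rates of 8.85% and 9.62%. Clusters were made from 2000 variable genes without the members, S100a8, S100a9, mitochondrial, hemoglobin, receptor and sex-linked genes. They used 30 principal components, 15 neighbours and the Leiden method of igraph 0.11.9 at resolution 1. Clusters were named from marker lists, so class names are a reconstruction.

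Counts were summed per class and library and scaled to CPM. A gene counted as measured in a class from 50 UMIs, KO and WT together, a gene at 0 was set to 3 UMIs, and 1.5-fold was used as a mark of size. Shares carry Clopper-Pearson and ratios exact conditional intervals (scipy 1.17.1). On simulated counts for tumor T-like cells with 9625 genes, the ratio intervals held the true value for 95.6% of genes, and 99% of genes changed 2-fold were past 1.5-fold. The simulated counts held counting error only, as the intervals assume, so they check the calculation and not the spread between cells, mice or libraries. Coding lengths come from GENCODE M21 (shortest principal transcript) and start windows from RefSeq.

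The rule for naming took the 2 highest and 2 lowest members by ratio (at least 100 UMIs) in each class of at least 200 cells per library. It also took members of related pairs, those with the highest or lowest share of the pool and those past 1.5-fold in 3 classes. The 5 that vary most between classes and up to 4 genes of each other list were added. Not all of these are given in the text, such as Rps7, among the lowest in mature neutrophil-like cells. All other members named, among them those past 1.5-fold in 1 class and those steady across classes, were picked after their values were seen. Members and lists were chosen with earlier results of these data known.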

Additional observations from a re-analysis of the deposited data

Results flagged for a closer look

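For 7 members, every bone marrow class moved one way and every tumor class the other in the share of the ribosomal protein UMIs, KO over WT. The difference between the tissues was not tested, and the classes of a tissue share their 2 libraries. The members were picked by this rule, and the same count was not made over all genes. As the tumor median minus the bone marrow median of log2 ratios, the gap was 0.93 for Rps27rt, 0.90 for Rps28, 0.64 for Rpl41, 0.46 for Rpl37, 0.41 for Rpl37a, 0.38 for Rpl35a and −0.22 for Rps13. Rps27rt had few UMIs in WT tumor neutrophil-like cells (24) and cluster 11 (34), and its coding sequence is identical to that of Rps27.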

How the results depend on the processing

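The KO over WT ratio of the ribosomal protein share over all bone marrow cells (0.950) was 0.910 with S100a8, S100a9, mitochondrial and hemoglobin UMIs left out of the total, 0.822 as a mean over cells, 0.820 with cells thinned to 1409 UMIs (1590 KO and 1897 WT cells left out) and 0.956 with doublets kept. It reversed to 1.062 with clusters weighted as in WT and to 1.060 with KO weights. Over all tumor cells (0.779) it was 0.785, 0.654, 0.743 (thinned to 4190 UMIs) and 0.780, and reversed to 1.056 and 1.058. The weights and the settings without a cluster or with marker-free cells were chosen after seeing the data. Those without a cluster are counted among the alternatives below and not given singly. The ratio of erythroid-like cells reversed to 0.988 (mean over cells), 0.977 (thinned) and 0.997 (doublets kept), and that of migratory dendritic-like cells to 1.024 (mean over cells) and 1.010 (doublets kept). Tumor neutrophil-like cells stood at 0.179 when thinned, with 10 WT cells left, at 0.714 with doublets kept and at 0.701 as a mean over cells. They stood at 0.833 without cells that held T, NK, conventional dendritic or macrophage markers. Cells with monocyte, migratory dendritic or B markers were not removed by that step.

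The bone marrow count of 14 pairs past 1.5-fold was 7 with the smaller total, 8 under median-of-ratios scaling and 2 at 2-fold. The share of higher pairs was 85.7%, 71.4% and 75% in the first 3. The tumor count of 82 was 54 with doublets kept, 33 at 2-fold and 17 without neutrophil-like cells, and median-of-ratios scaling moved its share of higher pairs from 12.2% to 40.5%. The counts of classes with a higher share stayed at 8 to 9 of 11 in bone marrow and 3 to 4 of 7 in tumor. Over 366 alternatives for named members, 357 kept the direction, and 100 moved by more than the counting interval. Over 93 alternatives for class shares, 88 kept the direction. Causes of these shifts were not tested. No paired analysis was possible because each group has 1 library. Depth limits copies with few UMIs, such as Rpl39l and Rpl3l, and all statements concern these libraries only.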
